A study of Mus musculus with 8 samples.

Results

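The 10 genes described here encode proteins with which muscle precursor cells hold on to each other, fuse, attach to their surroundings and keep the fibre membrane intact: Mymk, Mymx, Cdh15, Cdh2, Ncam1, Jam2, Jam3, Itga7, Cav3 and Dysf. They are the rows of the count files whose Ensembl identifier carries any of these symbols. They are 10 of the 53647 genes listed for each library. All 10 were also among the 15603 genes with enough counts to be tested.

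RNA was sequenced from wild-type mouse primary myotubes. The myoblasts came from the limb muscle of pups 2 to 3 days old and differentiated in medium with 5% horse serum. Differentiated cultures received 250 ng/ml of a recombinant cytokine for 48 h, which was interleukin 6 (IL6), leukaemia inhibitory factor (LIF) or oncostatin M (OSM), and controls carry the treatment label Control with no vehicle named. The cells of all 4 groups were harvested 72 h after differentiation, and each group has 2 libraries. The labels do not say whether the 2 libraries of a group come from separate animals or dishes, so the p-values measure only the spread between these libraries, which may be technical.

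Myoblasts recognise and adhere to each other through cadherins, immunoglobulin-type adhesion proteins and junctional adhesion molecules. The muscle-specific proteins myomaker and myomerger (also called myomixer) then drive the merging of the membranes, which gives rise to the multinucleated myotube. Once formed, the fibre anchors to laminin through integrins, and caveolin-3 and dysferlin serve the organisation and the repair of its surface membrane. OSM, LIF and IL6 belong to a cytokine family with a common receptor subunit, encoded by Il6st, and act through JAK kinases and STAT3. The design asks what each of them does to the myotube transcriptome at a matched dose and time.

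Library totals were close together, at 29482077 to 30025471 counts assigned to genes. Of 8 markers of differentiated myotubes, all were detected, with a summed level of 21330 to 22020 CPM (counts relative to library size, with edgeR's TMM scaling) in control, 18190 to 20990 with IL6, 19420 to 20610 with LIF and 18780 to 18900 with OSM. Myog, which encodes the differentiation factor myogenin, fell from a mean of 1133 CPM in control to 842 with LIF (adjusted p 0.00852) and 786 with OSM (adjusted p 0.000749, edgeR's quasi-likelihood test), and Myh8, the perinatal myosin heavy chain, was also called lower with both. Des, which encodes the intermediate filament protein desmin and is in the same list, rose from 1017 CPM to 1490 with LIF (log2 change 0.55, adjusted p 0.000177) and 1251 with OSM (log2 change 0.30, adjusted p 0.00382). The 6 markers of proliferating cells summed to 705 to 836 CPM in control, 662 to 712 with IL6, 511 to 552 with LIF and 196 to 240.0 with OSM, and all 6 passed the test as lower with LIF and with OSM. The 5 markers of undifferentiated myoblasts summed to 503 to 525 CPM in control, 528 to 561 with IL6, 612 to 616 with LIF and 737 to 753 with OSM. Sdc4 makes up most of this sum, at a mean of 317 CPM in control, 355 with IL6, 426 with LIF and 522 with OSM. With OSM the log2 difference from control was positive for all 5 and 3 were called higher (Pax7, Myf5 and Sdc4), while the Myod1 and Vcam1 libraries overlapped the controls. With LIF it was positive for 3 and negative for 2 (Myod1, whose libraries overlapped the controls, and Vcam1), and Sdc4 alone was called. The 6 fibroblast markers summed to 1652 to 1716 CPM in control, 1503 to 1703 with IL6, 1983 to 2046 with LIF and 2058 to 2166 with OSM, while Lum was at 0 in each library and Thy1 reached 1 count at most. Most of that sum is Col3a1, a collagen chain at 1433 CPM in control, 1851 with LIF and 2018 with OSM, called higher with both. Pdgfra of the same list was called higher with OSM, at 12.8 CPM beside 8.92 in control (adjusted p 0.0191). Col1a1 lay the other way, at 239 CPM in control, 151 with LIF and 78.4 with OSM (log2 difference −1.61, adjusted p 0.0845). Markers of macrophages, endothelial cells and Schwann cells summed to under 5 CPM in every library, and those of smooth muscle or pericytes to between 22.4 and 30.4 CPM. At these low levels the macrophage marker Cd68 was called higher with OSM, at 4.05 CPM beside 1.98 in control (adjusted p 0.00163). The pericyte marker Rgs5 was called lower with OSM, at 0.203 CPM beside 0.778 (adjusted p 0.0272). The part of these other cells in the values below was not tested. In bulk RNA, fewer cells of a type and less RNA per cell cannot be told apart.

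Promoter windows from RefSeq (GRCm38.p6) covered 3 of the 10 genes, Cdh15, Cav3 and Dysf, and the 250 bases before the annotated start were searched for a pair of motifs. The first is the E-box, CANNTG, which myogenin and its relatives bind, shown because Myog RNA differed between the groups. The second is TTCNNNGAA, the form that STAT factors bind. Both read the same on either strand. The windows of Cdh15 (chr8:122848124-122848373, plus strand) and Cav3 (chr6:112459255-112459504, plus strand) follow, with E-box matches in capitals.
Cdh15: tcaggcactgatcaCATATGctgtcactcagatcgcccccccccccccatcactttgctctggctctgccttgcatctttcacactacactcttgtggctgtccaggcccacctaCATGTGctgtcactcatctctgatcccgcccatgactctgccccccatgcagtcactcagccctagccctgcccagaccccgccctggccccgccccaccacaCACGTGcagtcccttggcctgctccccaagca
Cav3: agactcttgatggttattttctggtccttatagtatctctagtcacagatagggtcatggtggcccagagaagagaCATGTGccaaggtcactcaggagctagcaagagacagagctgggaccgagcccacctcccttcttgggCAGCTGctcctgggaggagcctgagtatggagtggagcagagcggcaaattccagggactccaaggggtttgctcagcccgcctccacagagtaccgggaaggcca
The Cdh15 window holds 3 E-box matches, a number that 12.2% of 32851 windows of this length reach. In the Cav3 window there are 2 matches, reached by 31.8% of windows, and at least 1 match stands in 66.2% of windows. Neither window of Dysf, which has 2 annotated starts, holds these letters. TTCNNNGAA, which 7.02% of windows hold, had no match in the windows of Cdh15, Cav3 or Dysf, so the motifs do not overlap there. A match of this kind describes the sequence and is not a measured binding site.

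Changes in the 10 genes were small. The ratio of the highest to the lowest group mean ran from 1.10 for Cdh2 to 1.27 for Itga7 and Jam3. With OSM, Itga7 rose and 1 of the 10 genes was thus called higher, where 10.7% of all tested genes were called higher at an adjusted p under 0.05 (edgeR's quasi-likelihood test, fitted to all 8 libraries and adjusted over 15603 genes). No member was called lower with OSM by edgeR, against 10.5% of all genes. DESeq2 called 3 lower (Mymk, Ncam1 and Cav3), where it called 18.1% of all genes in either direction. An unadjusted p under 0.05 was reached by 5 members with OSM, 2 higher and those 3 lower, beside 32.9% of all genes in either direction. With LIF, Itga7, Jam3 and Dysf rose, 3 of 10, where 4.18% of all genes were called higher, and neither edgeR nor DESeq2 called a member lower (3.52% of all genes). With LIF 5 members, 5 higher and 0 lower, had an unadjusted p under 0.05, beside 20.6% of all genes in either direction. IL6 gave 0% of genes called by edgeR in either direction, with 808 of 15603 genes (5.18%) under an unadjusted p of 0.05 and 19 called by DESeq2. Of the 10 genes, 1 (Mymx) had an unadjusted p under 0.05 with IL6, and DESeq2 called none. The 3 comparisons use the same control libraries. The median log2 difference over the 10 genes was 0.022 with OSM, 0.12 with LIF and 0.034 with IL6, beside −0.0027, −0.0078 and 0.00056 over all genes tested. Both libraries of a treated group lay beyond both controls for 8 genes with OSM (4 above and 4 below), 5 with LIF (all above) and 2 with IL6 (both above). Over all tested genes the same held for 60.9%, 52% and 28.2%.

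**Figure D1:**
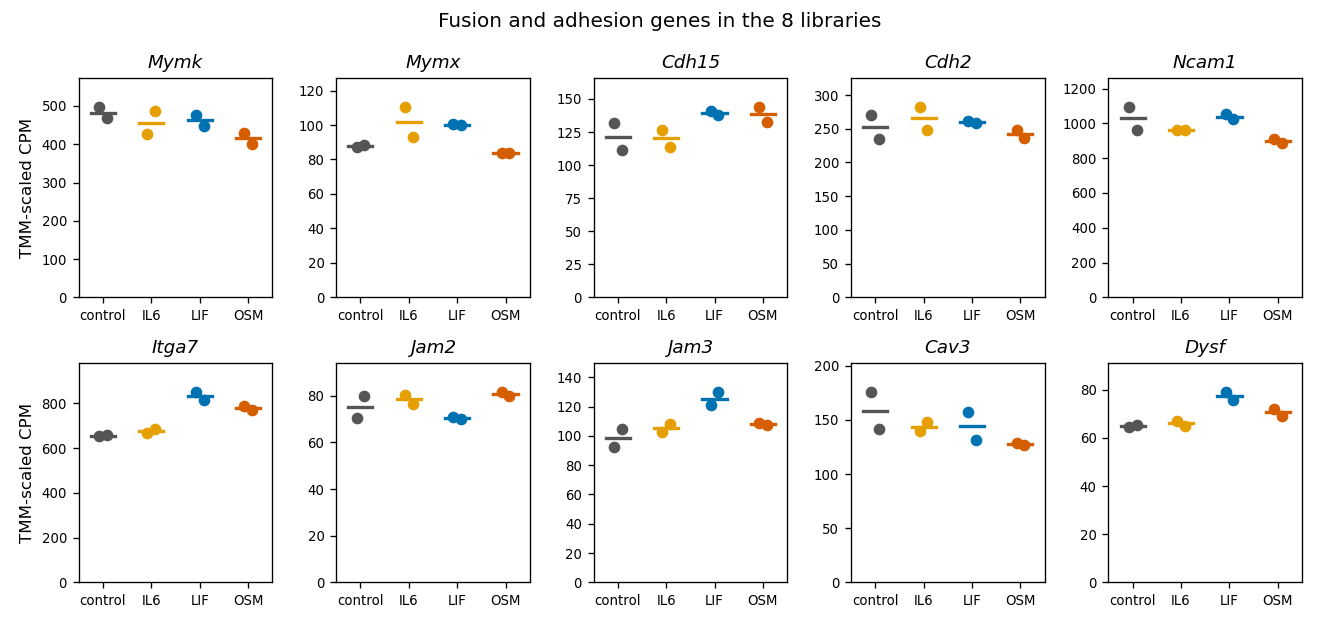
TMM-scaled CPM of each of the 10 genes (vertical axes, each from 0) in the control, IL6, LIF and OSM groups. Each point is a library and each bar the mean of 2 libraries. Itga7, Jam3 and Dysf are highest in the LIF libraries, and the 2 control points of Cav3, Ncam1 and Cdh2 lie farther apart than their 2 OSM points.

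Mymk (ENSMUSG00000009214) encodes myomaker, the membrane protein that fusing cells need on both surfaces. It stood at 497 and 468 CPM in the control libraries, 427 and 487 with IL6, 478 and 449 with LIF, and 430.0 and 401 with OSM. Both OSM libraries were below both controls, whereas the IL6 and LIF libraries overlapped the controls. The log2 difference with OSM was −0.22 (SE 0.073, 95% interval −0.37 to −0.058), and it missed the threshold at an adjusted p of 0.0517. The LIF and IL6 differences were −0.059 and −0.080 (adjusted p 0.727 and 0.946). DESeq2 gave the OSM difference an adjusted p of 0.0435, and over 14 alternatives it ranged from 0.0125 to 0.338. Beside this, the summed myotube markers and the proliferation markers were also lower than control in the OSM libraries, as given above. The lowest myotube marker sum was that of an IL6 library (18190 CPM), and Des of that list rose with OSM. A link of these markers with Mymk was not tested.

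Mymx (ENSMUSG00000079471) encodes myomerger, the short membrane protein that acts with myomaker at a later step of fusion. Its levels were 87.2 and 88.3 CPM in control, 110.5 and 93.3 with IL6, 101 and 99.8 with LIF, and 83.9 and 84.0 with OSM. The IL6 and LIF libraries all lay above the controls and the OSM libraries just below them. Against control, the log2 difference was 0.22 with IL6 (SE 0.075, unadjusted p 0.0129 and adjusted p 0.936 by edgeR). LIF differed by 0.19 (SE 0.075, adjusted p 0.161), and OSM by −0.064 (adjusted p 0.602). Between cytokines, Mymx was lower with OSM than with IL6, by a log2 difference of −0.28 (SE 0.075, adjusted p 0.0220), where 7.48% of all tested genes were called lower. The difference of OSM from LIF was −0.26 (SE 0.075, adjusted p 0.0556). IL6 replicate 1 is the higher of its pair: without it the difference of OSM from IL6 was −0.15 (adjusted p 0.169), and without OSM replicate 1 or 2 the adjusted p was 0.159 or 0.141. A fit of the OSM and IL6 libraries alone gave 0.0531, in a range of 0.000775 to 0.169 over 14 alternatives. Without IL6 replicate 2, the difference of IL6 from control was called, at 0.33 (adjusted p 0.0282, in a range of 0.0282 to 1).

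Cdh15 (ENSMUSG00000031962) encodes M-cadherin, the cadherin typical of muscle precursor cells, and Cdh2 (ENSMUSG00000024304) encodes N-cadherin, which muscle shares with neural tissue. Cdh15 was measured at 132 and 112 CPM in control, 126 and 114 with IL6, 141 and 138 with LIF, and 144 and 133 with OSM. The LIF and OSM libraries lay above both controls, with the nearest OSM and control values 133 and 132 CPM. The log2 difference was 0.20 with LIF (SE 0.082, adjusted p 0.186), 0.19 with OSM (SE 0.082, adjusted p 0.129) and −0.016 with IL6 (SE 0.082, adjusted p 0.994). Both moved with the control libraries: without control replicate 1 Cdh15 was called (0.32 with LIF and 0.31 with OSM, adjusted p 0.0384 and 0.0216), and without control replicate 2 the differences were 0.089 and 0.082 (adjusted p 0.640 and 0.559). These are also the ends of the range of p over 14 alternatives. Cdh2 gave 270.0 and 234 CPM in control, 282 and 248 with IL6, 262 and 259 with LIF, and 248 and 236 with OSM. Every treated group overlapped the controls for Cdh2, and its log2 differences from control were between −0.059 (OSM, adjusted p 0.652) and 0.074 (IL6, adjusted p 0.951). The 95% interval for Cdh2 with OSM was −0.23 to 0.11.

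Ncam1 (ENSMUSG00000039542) encodes the neural cell adhesion molecule, an immunoglobulin-type protein present on myoblasts and young fibres. Control libraries held 1095 and 964 CPM, IL6 libraries 964 and 965, LIF libraries 1052 and 1024, and OSM libraries 909 and 889. The OSM libraries were the lowest of the 8, and the LIF and IL6 libraries overlapped the controls. The log2 difference with OSM was −0.20 (SE 0.066, 95% interval −0.34 to −0.052, adjusted p 0.0533). DESeq2 gave it an adjusted p of 0.0393, and without control replicate 1 the difference was −0.10 (adjusted p 0.357), in a range of 0.00926 to 0.357 over 14 alternatives. LIF and IL6 gave 0.012 and −0.093 (adjusted p 0.951 and 0.937). In GENCODE M21, 4.81% of Ncam1 exon bases overlap the gene Gm11149 on the opposite strand.

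Jam2 (ENSMUSG00000053062) and Jam3 (ENSMUSG00000031990) encode junctional adhesion molecules B and C, which bind each other across neighbouring cells. Jam3 was at 92.7 and 104 CPM in control, 102 and 108 with IL6, 121 and 130.0 with LIF, and 109 and 108 with OSM. The LIF libraries were the highest of the 8. Jam3 rose with LIF, from 98.6 ± 8.31 to 126 ± 6.33 CPM (SD, n = 2), by a log2 change of 0.35 (SE 0.070, adjusted p 0.00817). OSM and IL6 gave log2 differences of 0.13 and 0.094 (SE 0.070 for both, adjusted p 0.205 and 0.937). Leaving out control replicate 1 or LIF replicate 2 ended the LIF call (log2 change 0.27 and 0.30, adjusted p 0.0634 and 0.145, in a range of 0.00109 to 0.145). In M21, 36.2% of Jam3 exon bases overlap Gm48796 on the opposite strand and 18.8% of its 50-base stretches recur there. The strand setting of the counting is not given in the sources used here, so the split of reads between these genes is uncertain.

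Its partner Jam2 gave 70.3 and 80.0 CPM in control, 80.4 and 76.4 with IL6, 70.7 and 69.8 with LIF, and 81.6 and 79.7 with OSM. Here the LIF libraries were at the level of the lower control, and the OSM libraries at that of the higher one. The log2 difference was −0.097 with LIF (SE 0.071, adjusted p 0.508) and 0.10 with OSM (SE 0.071, adjusted p 0.350). Jam2 alone among the 10 genes had both OSM libraries above both LIF libraries, with a log2 difference of 0.20 (SE 0.071, adjusted p 0.117).

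Itga7 (ENSMUSG00000025348) encodes integrin α7, which pairs with integrin β1 as the main laminin receptor of muscle fibres. It stood at 653 and 658 CPM in control, 667 and 685 with IL6, 852 and 815 with LIF, and 788 and 769 with OSM. The 4 libraries treated with LIF or OSM lay above the 4 control and IL6 libraries with a gap of 685 to 769 CPM. From 655 ± 3.82 CPM in control (SD, n = 2), Itga7 rose to 833 ± 25.8 with LIF, a log2 change of 0.35 (SE 0.057, adjusted p 0.00247), and to 779 ± 13.5 with OSM, a log2 change of 0.25 (SE 0.057, adjusted p 0.00704). With IL6 the level was 676 ± 12.6 and the log2 difference 0.046 (95% interval −0.077 to 0.17, adjusted p 0.953). Itga7 was also higher than with IL6 in both other groups, by 0.30 with LIF (SE 0.057, adjusted p 0.0139; 1.73% of all genes called higher) and by 0.20 with OSM (SE 0.057, adjusted p 0.0274; 8.09% of all genes called higher). OSM and LIF differed by −0.098 (95% interval −0.22 to 0.025, adjusted p 0.378). The call against control ended for OSM without OSM replicate 1 (adjusted p 0.0775, in a range of 0.000648 to 0.0775) and for LIF without LIF replicate 1 (adjusted p 0.0587, in a range of 1.64e-06 to 0.0587). Against IL6, the LIF call ended without LIF replicate 1 or 2 (adjusted p 0.233 and 0.117), and the OSM call ended in 6 of 14 alternatives, namely a fit of the 2 groups alone and without IL6 replicate 1 or either LIF or OSM library, with an adjusted p of up to 0.184.

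Cav3 (ENSMUSG00000062694) encodes caveolin-3, the muscle form of the protein that shapes caveolae, small pits of the surface membrane. Its libraries read 176 and 141 CPM in control, 139.7 and 148 with IL6, 157 and 131 with LIF, and 129 and 127 with OSM. The OSM libraries were the lowest of the 8, and the 2 control libraries were farther apart than those of the IL6, LIF or OSM group. The log2 difference was −0.31 with OSM (SE 0.10, 95% interval −0.54 to −0.082, adjusted p 0.0559). It was −0.14 in both other groups (LIF adjusted p 0.523, IL6 adjusted p 0.937). Without control replicate 1 the OSM difference was −0.14 (adjusted p 0.355) and without control replicate 2 it was −0.45 (adjusted p 0.00394), and DESeq2 gave it an adjusted p of 0.0211, in a range of 0.00394 to 0.355 over 14 alternatives.

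Dysf (ENSMUSG00000033788) encodes dysferlin, the membrane protein needed to reseal damaged muscle fibres. Control libraries held 64.7 and 65.3 CPM, IL6 libraries 67.0 and 65.1, LIF libraries 79.1 and 75.6, and OSM libraries 72.1 and 69.1. Both LIF and both OSM libraries exceeded all control and IL6 libraries. Dysf rose with LIF, from 65.0 ± 0.448 to 77.3 ± 2.45 CPM (SD, n = 2), by a log2 change of 0.25 (SE 0.063, adjusted p 0.0269). The difference was 0.12 with OSM (SE 0.063, adjusted p 0.212) and 0.023 with IL6 (SE 0.063, adjusted p 0.987). The LIF call was lost when either control library (adjusted p 0.102 and 0.0715), either LIF library (0.256 and 0.132) or either OSM library (0.0525 and 0.0521) was left out, in a range of 0.0128 to 0.256. In M21, 5.49% of Dysf exon bases overlap other genes on the opposite strand.

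**Figure D2:**
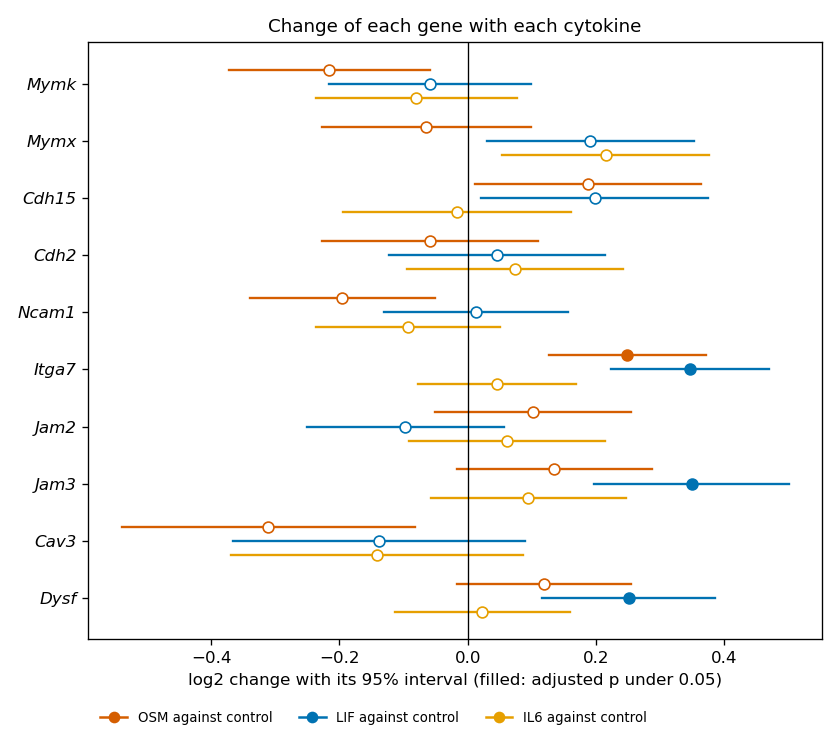
Log2 change of each gene against control (horizontal axis) for OSM, LIF and IL6, with the 95% interval of the fit as a line. Filled points had an adjusted p under 0.05: Itga7 with OSM and LIF, and Jam3 and Dysf with LIF. The intervals of Mymk, Ncam1 and Cav3 with OSM lie below 0 although the points are open.

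Set against each other directly, the cytokines had few differences in these genes that edgeR called. Between OSM and LIF, where 4.06% of all tested genes were called higher and 3.95% lower (8.02% together), edgeR called none of the 10 genes. In this comparison 4 members had an unadjusted p under 0.05, beside 20.7% of all genes. DESeq2 called 2 lower, where it called 8.47% of all genes in either direction. The log2 difference was negative for 9 of the 10 genes, with a median of −0.14 beside −0.00061 over all genes. Below both LIF libraries lay both OSM libraries of 8 genes, with 1 gene above, where groups did not overlap for 56.6% of all genes in either direction. The lowest adjusted p-values were those of Mymx (0.0556), Ncam1 (log2 difference −0.21, SE 0.066, adjusted p 0.0799) and Jam3 (log2 difference −0.21, SE 0.070, adjusted p 0.0857). Mymk differed by −0.16 (95% interval −0.31 to 0.00084, adjusted p 0.245). With only the OSM and LIF libraries in the fit, 4 members were called lower and 1 higher, and 19.2% of all genes tested in that fit were called in either direction.

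Against IL6, 2 of the 10 genes were called with OSM, where 15.6% of all genes were called in either direction, and 1 of 10 with LIF, where 2.76% were. Mymx was lower and Itga7 higher with OSM, and Itga7 was higher with LIF. Neither edgeR nor DESeq2 called a member lower for LIF against IL6, where 1.03% of all genes were. An unadjusted p under 0.05 was reached by 3 members for OSM and 5 for LIF (1 of these lower), beside 28.3% and 14.8% of all genes. Jam3 lay above IL6 with LIF by 0.25 (SE 0.070, adjusted p 0.0754) and Dysf by 0.23 (SE 0.062, adjusted p 0.0749). For Jam3 and Dysf the OSM difference from IL6 was 0.041 (adjusted p 0.768) and 0.096 (adjusted p 0.357). The libraries did not overlap for 7 genes between OSM and IL6 and for 6 between LIF and IL6, beside 54.3% and 43.5% of all tested genes.

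**Figure D3:**
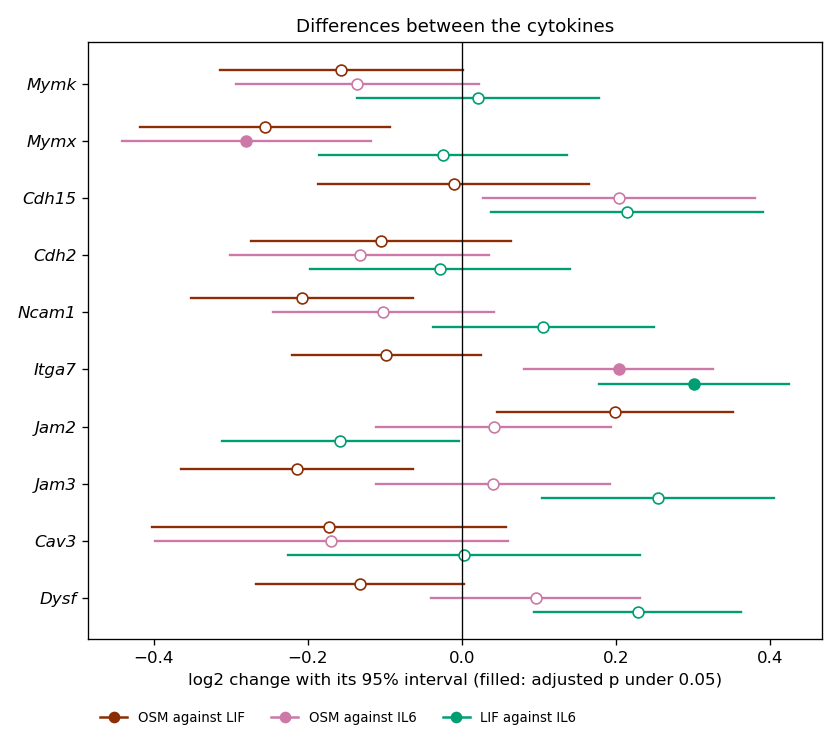
Log2 difference of each gene between pairs of cytokines (horizontal axis), with its 95% interval as a line. Filled points had an adjusted p under 0.05, namely Mymx for OSM against IL6 and Itga7 for OSM and LIF against IL6. All 10 points for OSM against LIF are open.

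Levels can be compared between genes once divided by length. On the scale of CPM per kb of exon, the control order was Mymk at 319, Cav3 at 137, Ncam1 at 119, Mymx at 85.5, Itga7 at 81.0, Cdh15 at 37.4, Cdh2 at 31.3, Jam3 at 30.8, Jam2 at 12.4 and Dysf at 7.80. Mymk stood above 99.3% of the tested genes on this scale and Dysf above 66.1%. Neighbours whose 2 control libraries overlapped were Cav3 with Ncam1 and Cdh2 with Jam3. With IL6 the order of means was the same as in control. With LIF and with OSM, Itga7 stood above Mymx (103 against 97.6 CPM per kb with LIF, 96.2 against 81.7 with OSM). Likewise Jam3 was above Cdh2 (39.2 against 32.3 with LIF, 33.8 against 30.01 with OSM), with no overlap of the libraries in either group. Exon lengths came from M21 and take no account of which transcripts are used.

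**Figure D4:**
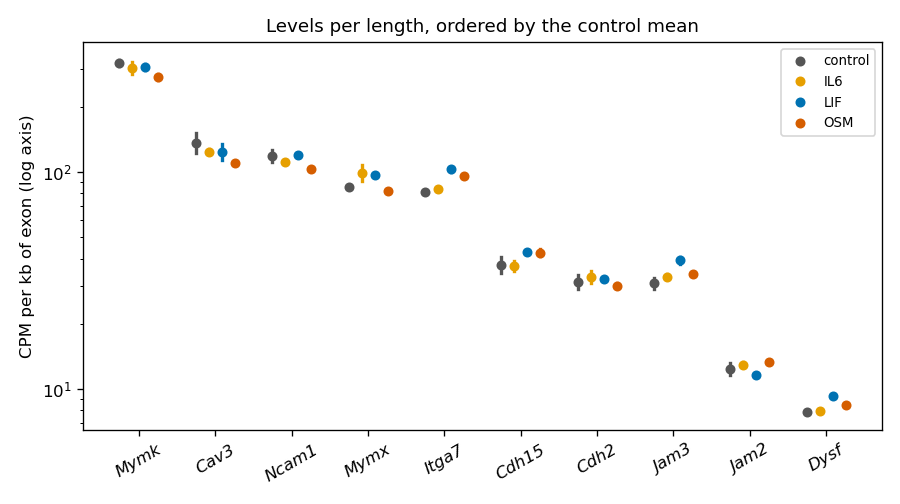
CPM per kb of exon (vertical log axis) for the 10 genes, ordered by their control mean. Points are the means of 2 libraries and lines join the 2 libraries. Mymk is the highest in each group, and Itga7 passes Mymx in the LIF and OSM groups.

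The spread between replicates differed among the groups. In control, the median absolute log2 ratio of the 2 libraries over the 10 genes was 0.18, beside 0.084 over 5656 genes with at least 1000 counts. It was 0.078 beside 0.0997 with IL6, 0.051 beside 0.047 with LIF and 0.035 beside 0.055 with OSM. The widest pairs were Cav3 in control (0.32), Cav3 with LIF (0.26) and Mymx with IL6 (0.24), whereas Cdh15 was the widest with OSM (0.12). Counts behind these values ran from 1885 for Dysf to 31904 for Ncam1 in a library. The counting error of 1 library at the mean count of its group was thus 0.569% (Ncam1, LIF) to 2.29% (Dysf, control) of the value.

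The genes with the most similar course over the 8 libraries were sought for Mymk, Mymx and Itga7 among 10869 named genes with at least 100 counts on average, by the root mean square (RMS) difference of log2 CPM after each gene's own mean was removed. For Mymk these were Mpi (0.025), Hsd17b10 (0.029) and Chchd4 (0.032), where Mymk itself ranged over 0.31 on that scale. Mpi, which encodes an enzyme of mannose metabolism, fell with OSM by a log2 change of −0.27 (SE 0.078, adjusted p 0.0237). The nearest to Mymx were Anapc13 (0.039), Suco (0.0496) and Rnd3 (0.0498), over a range of 0.40. The nearest to Itga7 were St6galnac4 (0.026), Stom (0.026) and Stat3 (0.033), over a range of 0.38. Stat3, the transcription factor that these cytokines activate, rose with LIF by 0.32 (SE 0.057, adjusted p 0.00444) and with OSM by 0.27 (SE 0.057, adjusted p 0.00405). Its levels were 171 and 171 CPM in control, 173 and 182 with IL6, 210.0 and 215 with LIF, and 209 and 204 with OSM. Stom, which encodes the membrane protein stomatin, and St6galnac4, a sialyltransferase, also rose with LIF (0.35 and 0.38) and OSM (0.29 and 0.27). The calls of Stat3, Stom and St6galnac4 with LIF were each lost without 1 of the LIF libraries, at an adjusted p of 0.0882, 0.0833 and 0.0789. Those of Stat3 and Stom with OSM were lost without OSM replicate 1 (0.0542 and 0.0604). St6galnac4 with OSM was lost in 3 such fits, and Mpi in 3, at up to 0.0819 and 0.218. As the genes were picked for their likeness over these libraries, their changes do not stand as separate support.

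Of 75 further genes in 4 lists around these proteins, 71 could be tested and Adgrb1, Adgrb3, Nphs1 and Cdh4 had at most 3 counts in a library. With OSM 22 of the 71 were called (15 higher and 7 lower), with LIF 11 (5 higher and 6 lower), beside 21.2% and 7.7% of all tested genes. These counts are 31.0% and 15.5% of the 71. With IL6 edgeR and DESeq2 called 0 of 71. An unadjusted p under 0.05 by edgeR was reached by 6 of the 71, 0 higher and 6 lower, beside 5.18% of all tested genes. Between OSM and LIF 12 were called (7 higher and 5 lower), 16.9% of the 71 beside 8.02% of all tested genes.

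In the list of fusion machinery, 7 of 27 tested genes rose and 2 fell with OSM, and 3 rose and 2 fell with LIF. That is 33.3% and 18.5% of the list called, beside 21.2% and 7.7% of all tested genes. The median log2 difference over the list was 0.11 with OSM and −0.0085 with LIF. Itga4, an integrin subunit whose partner on the other cell is Vcam1, was at 15.6 and 15.04 CPM in control, 21.5 and 20.6 with LIF, and 23.8 and 25.4 with OSM. It rose by 0.46 with LIF (SE 0.088, adjusted p 0.00647) and by 0.69 with OSM (SE 0.087, adjusted p 8.33e-05). Ano5, a membrane protein of the anoctamin family that is mutated in a muscular dystrophy, rose from 27.4 and 30.1 CPM in control to 53.1 and 44.8 with LIF and 44.6 and 47.4 with OSM, by 0.77 and 0.68 (SE 0.10 for both, adjusted p 0.000604 and 0.000348). Adam12, a metalloprotease of regenerating muscle, was called higher with both (log2 change 0.73 with LIF and 0.62 with OSM), from a low level of 3.21 CPM, and without OSM replicate 2 its OSM change was 0.35 (adjusted p 0.385). Cdon, a co-receptor that relays cadherin contacts, fell from 532 and 426 CPM to 352 and 334 with LIF and 338 and 317 with OSM, by log2 changes of −0.48 and −0.55 (SE 0.11 for both, adjusted p 0.0292 and 0.00645). Kirrel, a mammalian relative of the adhesion receptors of fly myoblasts, fell with OSM by −0.24 and Ehd2, a membrane-bending ATPase, with LIF by −0.29.

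Among 13 tested cadherin and junction partners, 1 rose and 3 fell with OSM, and 1 rose and 2 fell with LIF. That is 30.8% and 23.1% of the list called, beside 21.2% and 7.7% of all tested genes. F11r, which encodes junctional adhesion molecule A and is thus a relative of Jam2 and Jam3, was at 16.1 and 16.6 CPM in control, 11.3 and 14.7 with IL6, 11.8 and 11.7 with LIF, and 5.58 and 8.19 with OSM. It fell with OSM by −1.24 (SE 0.16, adjusted p 0.000122), the largest change of the genes named from the 4 lists, and the OSM and LIF groups differed by −0.77 (SE 0.17, adjusted p 0.0131). Cdh11, a cadherin of mesenchymal cells, fell from 30.3 and 31.3 CPM to 22.5 and 21.2 with LIF and 16.9 and 17.7 with OSM, by −0.49 and −0.83 (SE 0.080 and 0.082, adjusted p 0.00227 and 9.1e-06). Nectin1, an immunoglobulin-type protein of cell contacts, rose by 0.42 with LIF and 0.68 with OSM. Afdn, the afadin that ties nectins to actin, fell by −0.22 and −0.30.

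In the integrin and laminin list, 4 of 16 rose with OSM, among them the focal adhesion genes Ilk by 0.26, Vcl by 0.21 and Tln1 by 0.18. With LIF 1 of 16 passed, Itga3, which fell by −0.53 (SE 0.099, adjusted p 0.00564). The list thus had 25% of its genes called with OSM and 6.25% with LIF, near the 21.2% and 7.7% of all tested genes. Of the caveola and membrane repair list, 3 of 15 rose and 2 fell with OSM, 33.3% of the list beside 21.2% of all tested genes. Cav1, the caveolin of most other cell types, fell from 55.7 and 54.2 CPM to 35.8 and 36.4, by −0.61 (SE 0.089, adjusted p 0.000293), and Cavin2, a coat protein of caveolae, by −0.51. Cav2 rose by 0.30, Anxa1 by 0.31 and Ahnak, a scaffold that binds dysferlin, by 0.23. With LIF, Anxa6 rose by 0.22 and Anxa5 fell by −0.34, both annexins that bind damaged membrane. These LIF calls are 13.3% of that list, beside 7.7% of all tested genes.

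The 17 calls named for OSM and the 11 for LIF in these lists are not equally firm. Itga4, Ano5, Nectin1, F11r, Cdh11, Anxa1, Cav1 and Cavin2 with OSM, and Ano5 with LIF, remained called with any 1 of the 8 libraries left out. The other 9 and 10 lost the call without at least 1 library. For OSM these were Cdon (without OSM replicate 2, adjusted p 0.0558), Afdn (without OSM replicate 1, 0.0537), and Kirrel, Ilk, Vcl, Tln1, Cav2, Ahnak and Adam12 in 3 to 5 such fits each, at up to 0.385. The change of Ilk was 0.16 without control replicate 1 (adjusted p 0.146). For LIF, Cdh11 lost it without LIF replicate 2 (0.0589), Anxa5 without LIF replicate 1 (0.0622), and Itga4 and Itga3 without either LIF library (up to 0.0836). Nectin1 lost it without control replicate 1 or LIF replicate 2 (up to 0.281). Cdon, Ehd2, Adam12, Anxa6 and Afdn did so in 3 to 6 such fits, at up to 0.288, and the LIF change of Cdon was −0.31 without control replicate 1 (adjusted p 0.119). Other settings ended the OSM calls of Adam12 (DESeq2 and upper-quartile scaling, adjusted p 0.0721 and 0.0528) and Tln1 (upper-quartile scaling, 0.0539). They also ended the LIF calls of Cdon, Afdn and Anxa6 (no filter on low counts, 0.0999, 0.0671 and 0.0589), of Afdn with the 2 groups alone (0.0501) and of Anxa6 with RLE scaling (0.0517).

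**Figure D5:**
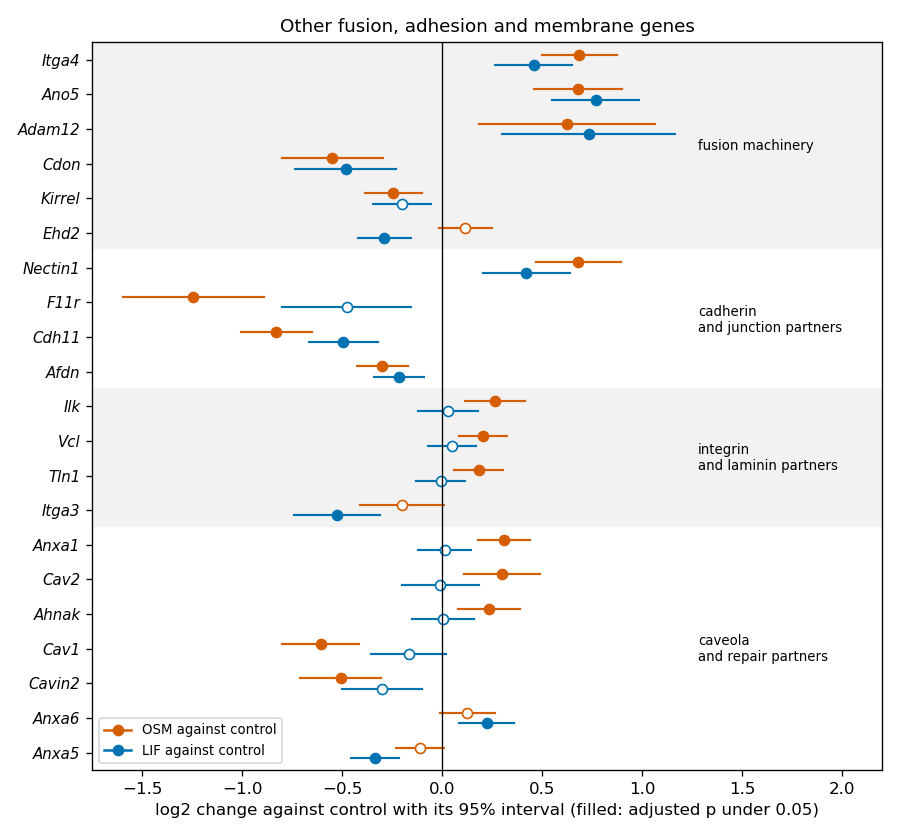
Log2 change against control (horizontal axis) of the genes named from the 4 lists, for OSM and LIF, with the 95% interval of the fit as a line and shading by list. Filled points had an adjusted p under 0.05. F11r lies farthest from 0 with OSM, at −1.24, and Ano5 farthest with LIF, at 0.77.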

How the data were processed

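RNA libraries came from a strand-marking mRNA kit, per the labels' protocols. The authors deposited raw read counts per gene, 1 file per library, with no pooling. The submitters' processing notes name FastQC 0.11.9, MultiQC 1.12, Trim Galore 0.6.5, STAR 2.7.3a, HTSeq 0.11.1, DESeq2 1.34.0 and the build GRCm39 (mm39), while the annotation release and HTSeq's strand setting are not given in the sources used here. The 5 summary lines of each file (11.72% to 12.66% of alignments) entered neither library sizes nor tests. Symbols, exon lengths and overlaps came from GENCODE M21 (GRCm38), which holds 52094 of the 53647 identifiers, so the counted genes carry no coordinates here. The promoter windows carry those of GRCm38.p6.

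Counts were tested with edgeR 4.0.16 in R 4.3.3: filterByExpr at a minimum count of 10, TMM scaling, and a robust quasi-likelihood fit of 4 group means to all 8 libraries (4 residual degrees of freedom). P-values were adjusted over the 15603 tested genes within each of 6 contrasts by the Benjamini-Hochberg method, with a threshold of 0.05. SEs and 95% intervals are those of the fit. The scripts were tested on simulated data. The chi-square per gene between the 2 libraries of a group averaged 2.97 (LIF) to 12 (IL6), so no pair matched within sampling noise. The intervals include the spread between libraries. The counting errors do not, and take each read as its own molecule although the labels name no molecular identifiers.

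The members and gene lists were chosen with earlier results of these data known. Named from each list were the called genes with the 3 largest rises and the 3 largest falls for OSM and for LIF against control, with a mean of at least 50 counts. The genes most like a member needed a mean of at least 100 counts and a name other than a Gm or Rik name. Beside Mymk and Mymx, the rule took the member with the largest change among those called with OSM. Itga7 was the only member called there. Arhgap26, in the fusion list, has 2 identifiers in M21 and the first was used. Alternatives were RLE or upper-quartile scaling, DESeq2 1.42.0, no filter, the 2 compared groups alone, a term for replicate number, and leaving out each library.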

Additional observations from a re-analysis of the deposited data

How the results depend on the processing

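With the replicate number as a block (replicate block), the members called against control with OSM were 2 higher and 3 lower, in place of 1 and 0, with 25.4% of all genes called in place of 21.2%. Cdh15 was the member added as higher (adjusted p 0.0313), and with LIF it was called too (adjusted p 0.0450). In that fit 3 members were lower for OSM against LIF (11.3% of all genes called), 2 higher for OSM against IL6 (19.2%) and 3 higher for LIF against IL6 (5.33%), with 9 genes called for IL6 against control, 832 for LIF against IL6 and 14 other listed genes higher for OSM against LIF. The labels do not say whether libraries with the same replicate number share a batch, and this was not tested. Deviations from the group means correlated between groups at r = 0.0063 to 0.24 over genes. Upper-quartile scaling called 3 members lower for OSM against control (21.5% of all genes called in either direction) and 1 for OSM against LIF (8.07%). DESeq2 called 3 (18.1%) and 2 (8.47%), with 19 genes for IL6 against control. With the 2 compared groups alone, 2 members were lower for OSM against control (22.5% of all genes called). The same fit for OSM against LIF called 1 member higher and 4 lower, with 2904 genes in all (19.2%). It also called 23 other listed genes higher and 8 lower. For OSM against IL6 it called 0 members either way (13.3% of all genes called).

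Leaving out 1 library at a time, members called higher and lower ranged over 0 to 2 and 0 to 2 for OSM against control, 1 to 4 higher for LIF against control, 0 to 1 higher for IL6 against control, 0 to 3 lower for OSM against LIF, 0 to 2 higher and 0 to 1 lower for OSM against IL6, and 0 to 2 higher for LIF against IL6. All genes called ranged from 1613 to 4056 for OSM, 314 to 1659 for LIF and 0 to 182 for IL6 against control, 440 to 1746 for OSM against LIF, 1111 to 2684 for OSM against IL6 and 79 to 724 for LIF against IL6. Other listed genes ranged from 6 to 23 higher for OSM, 2 to 7 higher and 1 to 9 lower for LIF and 0 to 4 lower for IL6 against control, and 1 to 13 higher and 0 to 5 lower for OSM against LIF.

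Signs turned only for members that were not called. Against control with a library left out, Cdh2 ran from −0.15 to 0.047 with OSM. With LIF the ranges were −0.048 to 0.15 for Cdh2, −0.072 to 0.11 for Ncam1, −0.19 to 0.0036 for Jam2 and −0.28 to 0.028 for Cav3. With IL6 they were −0.18 to 0.012 for Mymk, −0.13 to 0.11 for Cdh15, −0.023 to 0.18 for Cdh2, −0.18 to 0.0012 for Ncam1, −0.029 to 0.16 for Jam2 and −0.29 to 0.024 for Cav3. For OSM against LIF, Cdh15 ran from −0.065 to 0.051. For LIF against IL6 they were −0.068 to 0.12 for Mymk, −0.14 to 0.11 for Mymx, −0.12 to 0.069 for Cdh2 and −0.13 to 0.13 for Cav3. Cav3 there was also −0.0087 with upper-quartile scaling and −0.0034 with the replicate block. Where a call or a sign moved, the cause was not tested. The fits that left a library out also hold fewer libraries. The counting error of 1 library was at most 2.29% of a member's mean count in its group.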
